A study of Mus musculus with 12 samples.

Results

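The 9 genes described here encode factors and regulators of the marrow niche, the stromal setting in which blood stem and progenitor cells are kept. They were chosen by name (Cxcl12, Kitl, Angpt1, Il7, Vcam1, Lepr, Foxc1, Ebf3 and Nes), and all 9 were found among the 25655 genes of each deposited table. The study asked which genes estrogen receptor alpha, encoded by Esr1, controls in PDGFRα+ mesenchymal cells, with bone metabolism in view, and its title places it in female mice. RNA of such cells sorted from muscle and from bone was read by 3' mRNA sequencing, which counts the ends of polyadenylated transcripts. The 12 samples form 4 groups of 3.

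All 3 muscle knockout and all 3 bone knockout samples carried PDGFRα-CreER, a Cre recombinase that tamoxifen activates in cells expressing PDGFRα, together with Esr1flox/flox. Of the muscle controls, replicates 1 and 2 carried PDGFRα-CreER alone and replicate 3 carried PDGFRα-CreER with Esr1flox/+. Of the bone controls, replicate 1 carried Esr1flox/flox without the Cre and replicates 2 and 3 carried PDGFRα-CreER alone. The sorting gate was CD45-, CD31-, Vcam1- and PDGFRα+ in muscle. In bone it was CD45-, CD31- and PDGFRα+, with no Vcam1 step. Age, tamoxifen dosing and whether replicates were separate animals are not given in the labels, so the spread behind each p may be in part technical.

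In the marrow, CXCL12, KIT ligand, angiopoietin 1 and interleukin 7 are supplied to blood cells by perivascular stromal cells. Many of these cells carry the leptin receptor and rely on the transcription factors FOXC1 and EBF3. PDGFRα+ cells of muscle are fibro-adipogenic progenitors, which support muscle repair. Estrogen receptor alpha binds DNA at a palindrome, the estrogen response element.

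Each table gives a single comparison of knockout over control: a log2 fold change, a p, an FDR for part of the genes, and the larger of the 2 group means, whose unit the header does not name. Values per library could not be assigned to samples and are not given, so no spread between replicates stands beside the levels. An approximate standard error was taken from each fold change and its p, as if the p came from a two-sided normal test, and approximate 95% intervals follow from it. In bulk RNA of sorted cells, fewer cells of a type and less RNA per cell cannot be told apart.

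Promoter sequence was examined because the deleted gene encodes a DNA-binding receptor. RefSeq windows on GRCm38.p6, running from 250 bases before a transcript start to 50 after it, were at hand for 6 of the 9 genes (7 windows). None of the 7 held the palindrome GGTCANNNTGACC, which 23 of 32851 windows hold (0.0700%). Its 5-letter arm GGTCA, searched on both strands, was in the windows of Foxc1 and Nes, against 40.5% of all windows. The GC box GGGCGG, also searched on both strands with overlapping matches counted, was in the windows of Cxcl12 (5 matches), Kitl (3), Ebf3 (3), Nes (2) and Foxc1 (1). It was in 1 of the 2 windows of Lepr, against 35.7% of all windows. The 7 windows were 54.3% to 77% G or C, against a median of 52.7% over all windows. The part of base composition in the GC box matches was not tested. Shown are Cxcl12, the ligand with the highest deposited level, and Foxc1, the gene with a GGTCA ahead of its start. Both end before the annotated gene start, and capitals mark the arm and the GC box wherever they occur on either strand. The Cxcl12 stretch is chr6:117168285-117168534 and the Foxc1 stretch is chr13:31806396-31806632, both on the plus strand.
Cxcl12: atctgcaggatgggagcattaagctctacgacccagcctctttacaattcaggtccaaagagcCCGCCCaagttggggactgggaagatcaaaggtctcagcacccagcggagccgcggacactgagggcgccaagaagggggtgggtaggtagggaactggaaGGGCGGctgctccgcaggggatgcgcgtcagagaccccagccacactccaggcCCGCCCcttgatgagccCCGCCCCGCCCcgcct
Foxc1: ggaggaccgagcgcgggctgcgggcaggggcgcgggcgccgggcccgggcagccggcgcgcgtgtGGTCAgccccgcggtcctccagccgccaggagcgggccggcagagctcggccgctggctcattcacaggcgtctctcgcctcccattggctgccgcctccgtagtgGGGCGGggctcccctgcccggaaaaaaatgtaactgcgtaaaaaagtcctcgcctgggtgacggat
These matches describe letters in a window and say nothing of binding there.

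Before the genes themselves, the samples were checked. Esr1 did not pass in either tissue, with log2 fold changes of 1.02 in muscle and -2.69 in bone, per the authors' deposited table (FDR = 1.00 and 0.440). A 3' tag can outlast the deletion of an internal exon, so this does not check the genotypes. Pdgfra had a larger group mean of 493.5 in muscle and 8.598 in bone, per the authors' deposited table. The bone table was dominated by blood transcripts, with 7 erythroid genes making up 58.6% of its summed larger group means, against 0.341% in muscle. Of 7 neutrophil genes in bone, 1 passed an FDR of 0.05, and all 7 had a positive fold change and an FDR under 0.1, where 69.7% of all bone genes were positive and 32.2% were under that FDR. Of 7 haematopoietic genes in bone, 6 had a positive value, with a median of 2.28 against 2.51 over all bone genes, and Lyz2 was the most abundant (1399 in the authors' deposited table). Endothelial markers were at or near 0 in bone: 5 of 7 were listed at 0, and Pecam1, the highest, had 0.304 in the authors' deposited table. In muscle 0 of the 7 were listed at 0, from 0.302 for Cdh5 to 32.4 for Esam in the authors' deposited table. There 2 of the 7 were positive, with a median of -1.54. The part of endothelial transcripts in the muscle values was not tested. Of 6 myogenic markers, Pax7, Myf5 and Cdh15 were listed at 0 in muscle. The other 3 were detected there, with larger group means of 75.9 for Des, 37.2 for Chodl and 10.3 for Myod1 and negative log2 fold changes of -2.11, -1.80 and -7.75 in the authors' deposited table (p = 0.143, 0.210 and 0.0163). For Myod1 the larger group mean divided by the fold is 0.0477, under the lowest larger group mean above 0 in muscle (0.108). Its value is therefore a fitted number and not an estimate of size. Of all muscle genes with a p, 11.7% had an unadjusted p under 0.05. The part that blood cell transcripts play in the bone values below was not tested.

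None of the 9 genes changed past the authors' FDR of 0.05 in either tissue. In muscle, 7 of the genes had an FDR and 0 passed, where 9 of 7107 genes passed in the whole table (0.127%). In bone, 7 had an FDR and 0 passed, where 3 of 8534 genes did (0.0352%). The largest departures were in Il7, positive in both tissues, and Kitl, negative in bone. At an unadjusted p under 0.05, Il7 was the single gene of the 8 measured in muscle (11.7% of all genes with a p), and Il7 and Kitl were the 2 of the 7 measured in bone (33.0% of all genes). Their 2 bone values also lay under a looser FDR of 0.1, as did 32.2% of all bone genes, so a share of 2 in 7 was near the background. No gene of the set was under 0.1 in muscle (0.183% of all genes).

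**Figure D1:**
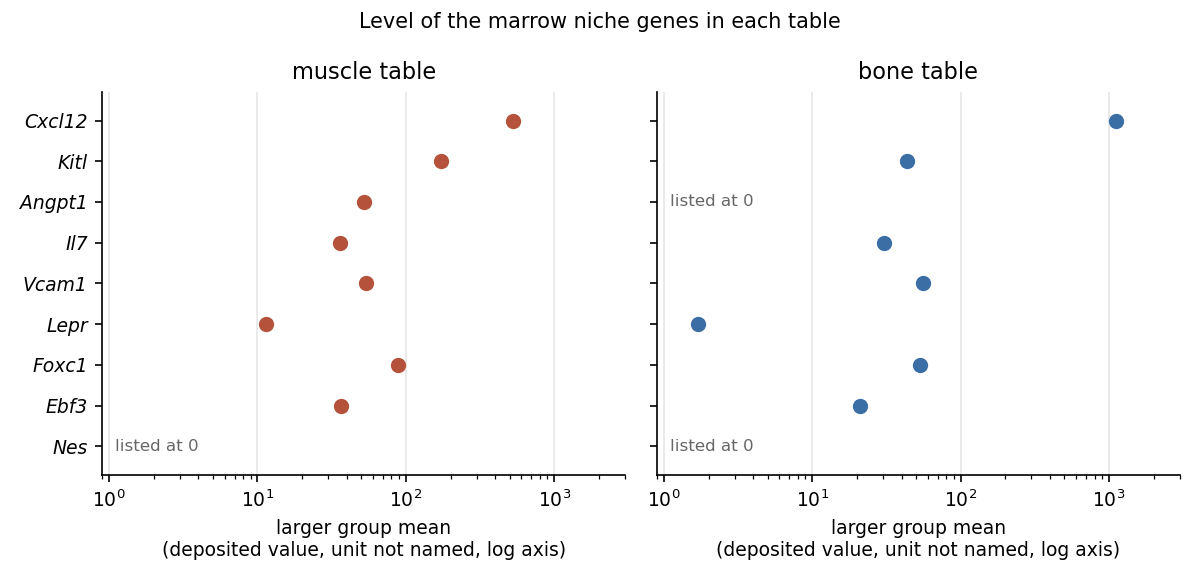
Larger of the knockout and control group means (deposited value, log axis) for the 9 genes in the muscle table and in the bone table. Cxcl12 is highest in both tables, Lepr is the lowest above 0 in both, Nes is listed at 0 in both and Angpt1 in bone. The tables were made separately.

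Levels are described first, as the deposited larger group mean with its place within its own table. That place counts all genes of the table, of which 48.7% in muscle and 59.0% in bone were listed at 0. The unit of this value is not named, so the order is one of the deposited value and not of molecules per cell. Cxcl12 (chromosome 6, 117168535 to 117181367 on GRCm38), the chemokine that holds blood progenitors in marrow, had 527.9 in muscle and 1121 in bone, per the authors' deposited table. It lay above 98.8% of genes in muscle and above 99.8% in bone. Kitl (chromosome 10, 100015630 to 100100416), the ligand of the receptor KIT on blood stem cells, had 173.5 in muscle and 43.7 in bone, per the authors' deposited table.

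Angpt1 (chromosome 15, 42424723 to 42676977) encodes angiopoietin 1, the ligand of the endothelial and stem cell receptor TEK. It had 52.6 in muscle, per the authors' deposited table and was listed at 0 in bone. As that value is the larger of both means, knockout and control bone groups were both at 0. Il7 (chromosome 3, 7569994 to 7613760), the growth factor of early lymphocytes, had 36.1 in muscle and 30.3 in bone, per the authors' deposited table.

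Vcam1 (chromosome 3, 116109949 to 116129688), an adhesion molecule that binds integrins on blood cells, had 53.7 in muscle and 55.9 in bone, per the authors' deposited table. The muscle gate removed cells with Vcam1 protein on their surface, so its muscle transcript is that of the cells which remained. That transcript lay above 88.5% of all genes in the muscle table, those listed at 0 included. Among muscle genes with a p it was in decile 8 of 10, counted from the lowest. Lepr (chromosome 4, 101717404 to 101815352), the leptin receptor, had 11.5 in muscle and 1.70 in bone, per the authors' deposited table. The end of a Lepr transcript is 99.1% identical over 214 bases to the pseudogene Gm12797, so Lepr values are uncertain.

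Foxc1 (chromosome 13, 31806633 to 31812476), a forkhead factor that maintains CXCL12-rich marrow stroma, had 88.6 in muscle and 53.0 in bone, per the authors' deposited table. Ebf3 (chromosome 7, 137193673 to 137314445), a factor that keeps the marrow cavity free of bone in mice, had 36.5 in muscle and 20.96 in bone, per the authors' deposited table. Nes (chromosome 3, 87971078 to 87980451) encodes nestin, an intermediate filament protein used to mark perivascular stroma. It was listed at 0 in both tables, as were 48.7% of all genes in muscle and 59.0% in bone. Housekeeping genes were detected, with 0 of 12 listed at 0 in each table. Differences in level between neighbouring genes could not be set against a spread over samples.

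**Figure D2:**
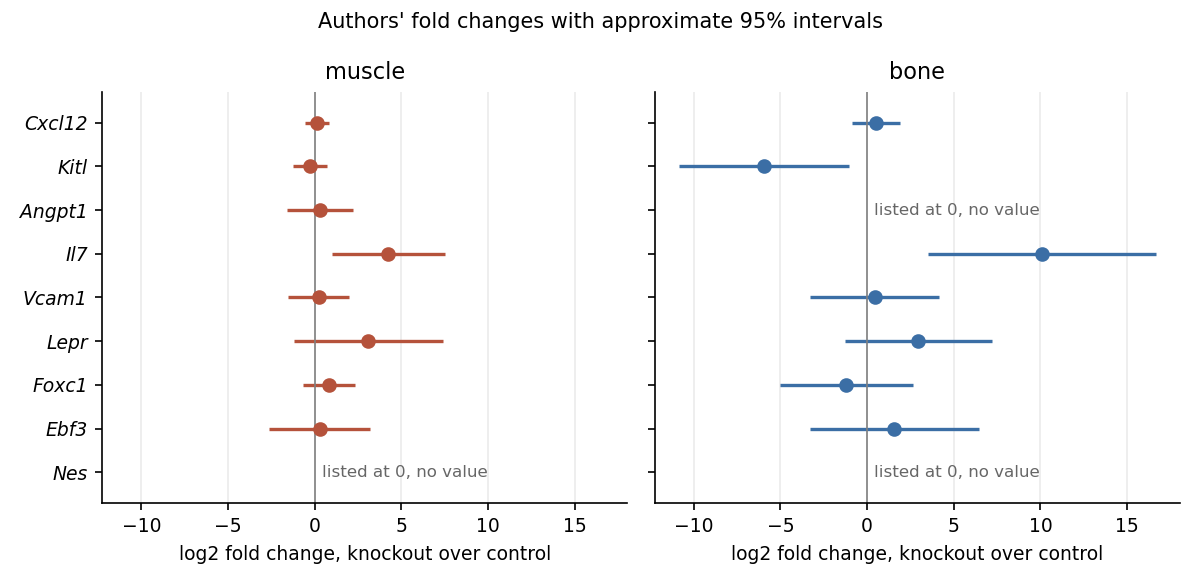
Authors' log2 fold change of knockout over control (points) with the approximate 95% interval implied by its p (lines), in muscle and in bone. The Il7 interval lies above 0 in both tissues and the Kitl interval lies below 0 in bone. The bone value of Il7 is a fitted number, so its interval does not give a size. The remaining intervals cross 0, and those of bone are wider than those of muscle for every gene but Lepr, whose are alike.

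Among the secreted ligands, Cxcl12 gave the narrowest estimate. Its log2 fold change was 0.15 in muscle, per the authors' deposited table (p = 0.665, FDR = 1.00), with an approximate interval of -0.54 to 0.85. For bone, the authors' deposited table lists 0.49 (p = 0.483, FDR = 0.708), with an approximate interval of -0.89 to 1.88. A doubling or halving of Cxcl12 in muscle, log2 values of 1 and -1, lies outside that muscle interval, and the bone interval does not cover a log2 value of 2. Its annotated coding transcripts have 3 different ends, which the gene value pools.

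The Kitl fold change was closer to 0 in muscle than in bone, but the difference between the tissues, tested further on, did not pass. Kitl has a log2 fold change in the authors' deposited table of -0.28 in muscle (p = 0.575, FDR = 1.00) and -5.97 in bone (p = 0.0170, FDR = 0.0822). The approximate intervals were -1.26 to 0.70 in muscle and -10.87 to -1.07 in bone. Its bone FDR value was shared by 209 genes. In bone its larger group mean divided by its fold is 0.698, where the lowest larger group mean above 0 is 0.101. The bone value may therefore rest on a knockout group near 0 and is a poor guide to size. Among the 329 bone genes with a larger group mean within 10% of that of Kitl, 21 had a lower fold change and 38 a smaller p. Foxc1 and Vcam1 share its decile of bone level, and with -1.20 and 0.43 in the authors' deposited table they lay much closer to the decile's median of -0.45. Membrane-bound and soluble forms of KIT ligand arise by splicing, which a count of the transcript end cannot separate.

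Il7 had a positive value in both tissues. In muscle its log2 fold change was 4.24 in the authors' deposited table (p = 0.0109, FDR = 0.437), with an approximate interval of 0.98 to 7.497. Only 9 of the 636 muscle genes within 10% of its level had a higher fold change. For bone, the authors' deposited table lists 10.10 (p = 0.00256, FDR = 0.0784), an FDR value shared by 1253 genes. There 20 of 419 genes of like level had a higher value, the highest was 10.43, and 37 lay within 0.5 of that highest value. Il7 therefore sits at the upper edge of the bone table, where fold changes follow the level of the gene. Its larger group mean divided by its fold is 0.0276, under the lowest larger group mean above 0 in that table (0.101). The bone value is a fitted number that may stand for a control group at or near 0, not an estimate of size. A predicted gene, Gm16685, is annotated on the opposite strand within Il7, and the sources used here do not say whether counting used strand. The same limit holds for Angpt1 (Gm17473), Vcam1 (Gm43109) and Ebf3 (Gm45278 and Gm10578), which also overlap genes on the opposite strand.

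**Figure D3:**
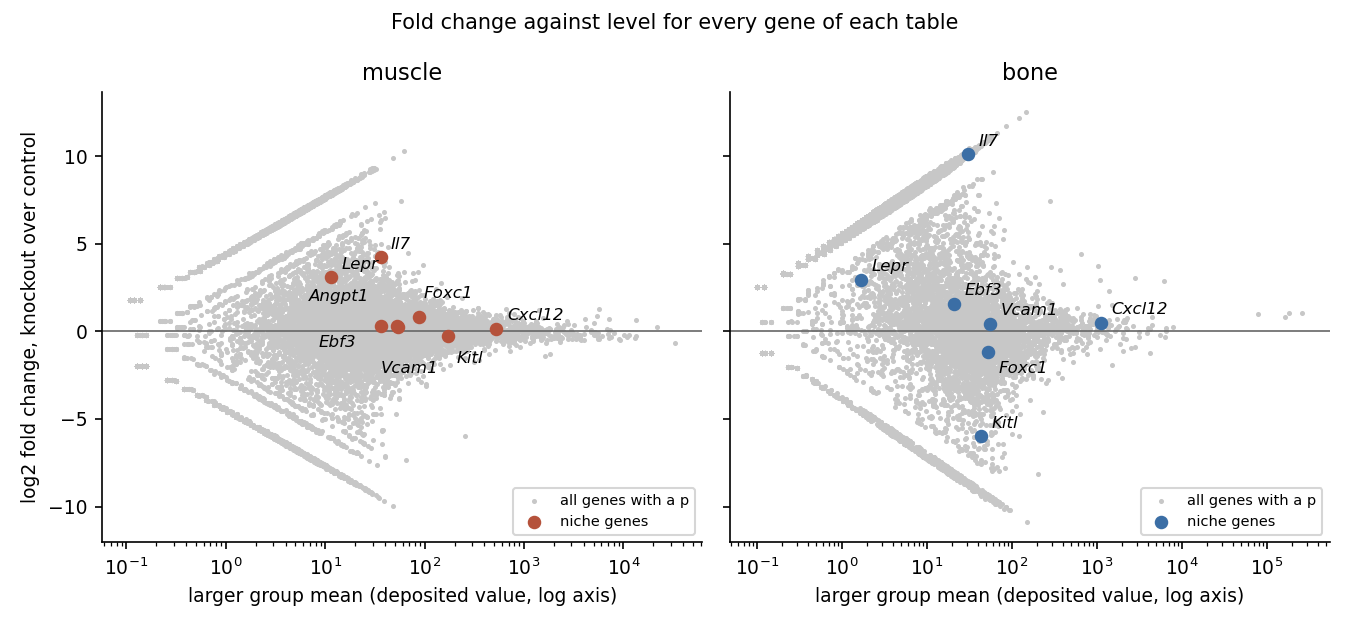
Authors' log2 fold change of knockout over control against the larger group mean (log axis) for every gene with a p (grey) and the niche genes (colour), in muscle and in bone. Il7 lies on the upper diagonal edge of the bone cloud, Kitl lies low in bone but inside the cloud, and Cxcl12 lies near 0 in both. In muscle the Angpt1 and Vcam1 points nearly coincide.

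Angpt1 could be compared in muscle alone. There the authors' deposited table shows a log2 fold change of 0.30 (p = 0.754, FDR = 1.00), with an approximate interval of -1.60 to 2.21. Vcam1, the adhesion ligand, had 0.23 in muscle (p = 0.798) and 0.43 in bone (p = 0.823), per the authors' deposited table. Its approximate standard error was 0.89 in muscle and 1.91 in bone, so the bone estimate leaves large changes in either direction undetected. Lepr, the receptor, had 3.10 in muscle (p = 0.157) and 2.95 in bone (p = 0.171), per the authors' deposited table, and in muscle it was given no FDR. In its decile of bone level the median gene had 6.41, and 88.5% of the genes were positive. A positive Lepr value in bone is therefore below most genes of its level.

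The transcription factors did not pass either. Foxc1 had 0.82 in muscle (p = 0.280) and -1.20 in bone (p = 0.539), per the authors' deposited table. These signs differ, and both approximate intervals include 0 (-0.67 to 2.31 in muscle, -5.05 to 2.64 in bone). Ebf3 had 0.30 in muscle (p = 0.838) and 1.57 in bone (p = 0.527), per the authors' deposited table. In muscle Ebf3 lies close to Il7 in level, and 259 of the 627 genes within 10% of its level had a higher fold change, so it stood near the middle where Il7 stood near the top. Nes, listed at 0, has no fold change.

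As a set, the genes had a median log2 fold change of 0.30 over the 8 measured in muscle, against 0.12 over all 13158 genes with a p, and 7 of the 8 were positive, against 53.5% of all genes. General mesenchymal stromal markers were positive there in 8 of 8 (median 0.62), and Col1a2, a collagen gene, rose (1.27, FDR = 0.00261 in the authors' deposited table). The 5 erythroid genes measured in muscle had a median of -0.99, and 0 of the 5 were positive. The part of these markers in the muscle values was not tested. In bone the median was 0.49 over 7 genes, against 2.51 over all 10518 genes with a p, and 5 of the 7 were positive. The bone table leans to positive values at low levels, and 69.7% of all its genes were positive. Relative to genes in the same decile of level, the median of the set was 0.28 in muscle and 0.51 in bone. Lepr is the gene whose sign turns when it is centred on its decile (-3.45).

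The knockout effects in the 2 tissues were set against each other, muscle minus bone, for the 7 genes measured in both. No difference passed after Benjamini-Hochberg adjustment over all 9598 genes with both values, and none of those genes did (0%). Kitl had the smallest p, with a difference of 5.69 and an approximate standard error of 2.55 (p = 0.0258, adjusted p = 0.150, by the approximate test on the fold changes and p-values of the authors' deposited table). That unadjusted p is under 0.05, as it was for 24.6% of all genes. With both effects centred on their level deciles, 4.41% of all genes passed (423 of 9598) and none of the 7 niche genes did. In that setting Kitl (adjusted p = 0.257) and Lepr (adjusted p = 0.247) had an unadjusted p under 0.05, as 16.9% of all genes had, by the approximate test on the authors' deposited table. The Lepr difference was 0.14 before centring and 6.38 after it. Most of that shift comes from the median of its bone decile (6.41). By the same test on values of the authors' deposited table, Il7 differed by -5.86 with an approximate interval of -13.19 to 1.47 (adjusted p = 0.326). As the bone value of Il7 is a fitted number, this difference and its interval do not give a size either. For Cxcl12 the difference was -0.34, with an approximate interval of -1.89 to 1.20. Its effects in muscle and bone may therefore differ by more than 2-fold in either direction without being seen here. Whether muscle and bone samples came from the same mice is not given.

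**Figure D4:**
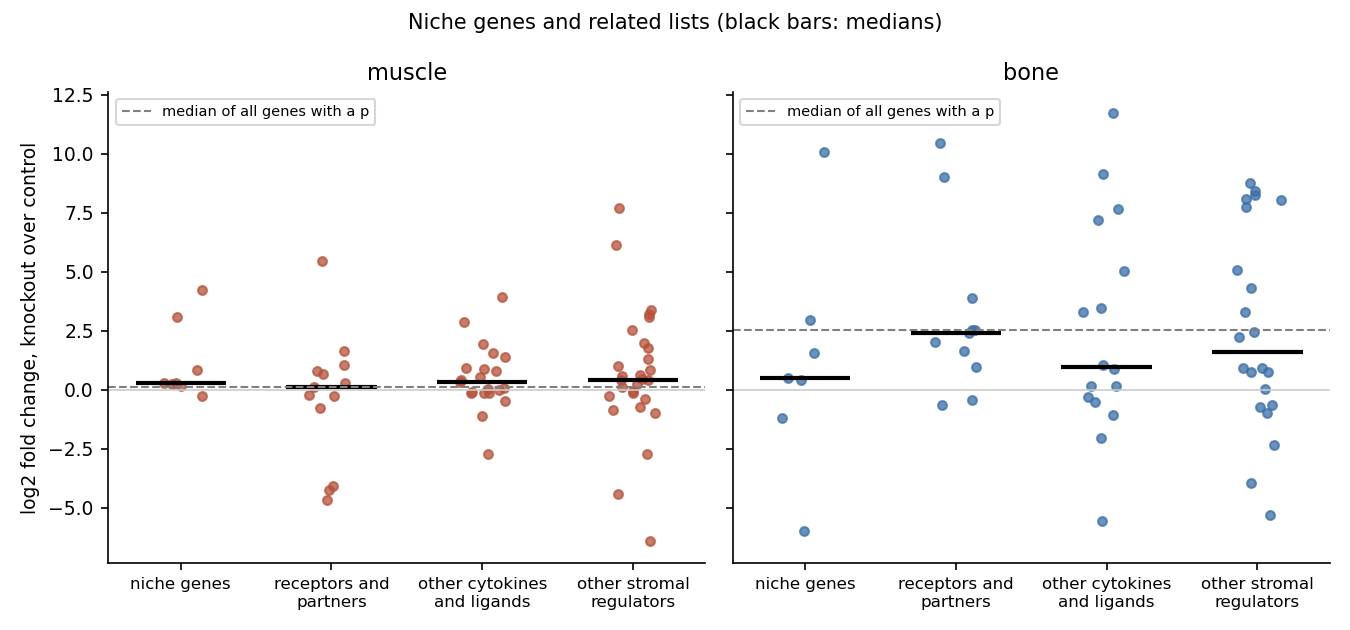
Authors' log2 fold changes of knockout over control for the niche genes and 3 related gene lists (points are genes, black bars are medians, the dashed line is the median of all genes with a p), in muscle and in bone. Medians in muscle lie between 0.12 and 0.43, and in bone all 4 lie below the dashed line at 2.51.

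Genes that act with these factors were taken as 3 lists, and none of their members passed an FDR of 0.05 in either tissue. At an unadjusted p under 0.05 the lists, in the order below, held 2, 0 and 4 genes in muscle and 2, 5 and 8 genes in bone. In bone these are 18.2%, 31.2% and 36.4% of the genes with a p, near or below the 33.0% of all bone genes. In muscle they are 15.4%, 0% and 14.3%, against 11.7% of all muscle genes. For 10 of the 12 list genes named in bone, and for Tgfb1, Cdh2 and Adipoq of the 12 named in muscle, the larger group mean divided by the fold is under the lowest larger group mean above 0 in that table. As with Il7 in bone, their values are fitted numbers and not estimates of size. Of the other 2 named in bone, Cd44 lies well above that lowest mean, at 22.3. Pdgfrb, at 0.109 against 0.101, lies barely above it, so its value should not be read as an estimate of size either. Of 15 receptors and partners of the niche ligands, 13 had a p in muscle, 0 rose and 0 fell (median 0.12). The smallest p there belonged to Il2rg, the shared chain of the interleukin 7 receptor (5.48, p = 0.0343 in the authors' deposited table), and to Cd44, a hyaluronan receptor (0.79, p = 0.0493). Integrin chain genes Itgb7 and Itga4 have entries of -4.68 and -4.26 in the authors' deposited table, with p above 0.05. In bone, Kit, Lep, Tek and Tie1 were listed at 0, 11 genes had a p, and the median was 2.42. Mmp9, a protease that can cleave CXCL12, had 10.45 and Il2rg 9.004, per the authors' deposited table, both with FDR = 0.0784. Dpp4, another protease that cleaves CXCL12, had 3.89 and Cd44 had 2.01, per the authors' deposited table, both with p above 0.05.

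Of 24 other niche cytokines and ligands, 21 had a p in muscle, with a median of 0.32 and 0 genes at an unadjusted p under 0.05. Those of smallest p were Lif, a cytokine of the interleukin 6 family (1.55), the growth factor gene Tgfb1 (3.95), the osteopontin gene Spp1 (2.87) and the Notch ligand gene Jag1 (1.93), all in the authors' deposited table. In bone 16 had a p, 8 were listed at 0, and the median was 0.98. Gas6, a ligand of TAM receptors, had 11.72 in bone, the colony-stimulating factor receptor ligand gene Il34 had 7.21, Bmp6 had 9.16 and Tgfb1 7.69, all in the authors' deposited table. Their FDR lay between 0.0784 and 0.0831 in the authors' deposited table, and 4 of the 13 genes with an FDR were under 0.1 (30.8%), near the 32.2% of all bone genes.

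Of 29 other stromal regulators and markers, 28 had a p in muscle, with a median of 0.43. At an unadjusted p under 0.05, 2 had a positive value and 2 a negative value. The positive ones were Cdh2, which encodes N-cadherin (7.70), and Lpl, which encodes lipoprotein lipase (0.83), in the authors' deposited table. The negative ones were Pparg (-4.43) and Adipoq (-6.43), in the authors' deposited table, where neither was given an FDR. In bone these 2 genes had opposite signs, with -5.29 for Pparg and 2.25 for Adipoq in the authors' deposited table, both with an FDR above 0.1. In bone 22 had a p, the median was 1.59, and 7 of the 19 with an FDR were under 0.1 (36.8%, against 32.2% of all bone genes), of which 6 were positive. The negative one was Alpl (-3.95, FDR = 0.0822 in the authors' deposited table). List genes of smallest p in bone were Pdgfrb, a mural and stromal receptor gene (8.27), Prrx1, a limb mesenchyme factor gene (8.78), Cdh11, a cadherin gene (8.42) and Zeb2 (8.10), all in the authors' deposited table. Of 7 mural markers, Pdgfrb among them, 6 had a p in bone, 3 were positive and the median was -2.06. For Rgs5, Acta2, Notch3 and Kcnj8 the larger group mean divided by the fold is 0.0820, 0.0259, 0.0799 and 0.0644. All lie under the lowest larger group mean above 0 in bone (0.101), so these signs and the median rest on fitted numbers. The part of mural cells in the Pdgfrb value was not tested.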

How the data were processed

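Cells were sorted from muscle and bone, RNA was column-extracted and 3' libraries were made with the QuantSeq kit, per the labels' protocols. GRCm38 and mm10 are named in the submitters' processing notes. No source used here names the aligner, the counting, the normalization or the test. The log2 fold change (knockout over control) and the p-value, FDR and Bonferroni columns were deposited by the authors and used as they stand, per the file headers. The larger group mean is a deposited score of unnamed unit, summing to 1150350 in muscle and 1171400 in bone. A further 48 columns of per-library values carry codes that match no label and were not used, so depth per sample is not given, and the planned count tests, replicate block and leave-one-out fits were not run.

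Genes with a larger group mean of 0 have no p. Standard errors and intervals were derived from fold change and p with SciPy 1.17.1. The steps were also run on simulated data whose p-values came from the same normal formula. That run checks the arithmetic and cannot check the normal approximation. Its standard errors were capped below the median of either tissue. The lists and the 9 genes were chosen with earlier results of these data known. All 9 genes were named, with up to 4 genes of smallest p per list and tissue, besides Esr1, Pdgfra and markers of other cells. Start and end of the gene regions in the files equal the GRCm38 annotation for 2.20% of 25600 matched genes, so coordinates printed are GENCODE M21 ones on GRCm38. Transcript ends (the last 300 bases) were compared with BLAST 2.17.0 at 90% identity over 100 bases.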

Additional observations from a re-analysis of the deposited data

How the results depend on the processing

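No member passed in either tissue with the authors' Bonferroni p or with Benjamini-Hochberg adjustment over all genes with a p or over genes whose larger group mean reached 50. The last setting leaves out Il7 in both tissues and Kitl in bone, which lie below 50, so it cannot test them. Over all genes with a p, the adjusted p in bone was 0.0966 for Il7 and 0.101 for Kitl. At an unadjusted p under 0.05 the count was 1 in muscle and 2 in bone. An FDR under 0.1 gave 0 in muscle and 2 in bone. The median log2 fold change in muscle was 0.30, and 0.23 over genes of group mean at least 50, 0.28 centred on level deciles and 0.19 centred on all genes. In bone it was 0.49, and 0.43, 0.51 and -2.02 in the same settings. Centring on all genes shifts every bone value by 2.51 and turned the sign of Cxcl12 (-2.02), Vcam1 (-2.09) and Ebf3 (-0.94), and centring on level deciles that of Lepr (-3.45), which follows from the lean of the bone table. Differences between tissues with an unadjusted p under 0.05 numbered 1, or 2 (Kitl and Lepr) with effects centred on level deciles. Adjusted, they numbered 0 for the niche genes in each setting, while the count over all genes was 423 after that centring and 0 without it. No paired analysis was possible because the columns carry no replicate numbers, and leave-one-out fits were not run for the same reason. Without values per library, depth limits could not be given. Approximate standard errors in bone were widest for Il7 (3.35), Kitl (2.50) and Ebf3 (2.49), against a median of 2.54 over all bone genes.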

Other observations

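The receptors that pair with each ligand were looked up after the values were seen, outside the rule for named genes. Ackr3, the scavenging receptor of CXCL12, had a larger group mean of 188.0 in muscle and 45.1 in bone, per the authors' deposited table. The authors' deposited table lists its log2 fold change at -0.22 in muscle (p = 0.647) and -0.42 in bone (p = 0.849). Cxcr4, the signalling receptor, had 2.82 in muscle and 17.8 in bone, per the authors' deposited table, with fold changes of -0.24 and 0.95, neither passing. Il7r had 0.325 in muscle and 1.22 in bone, per the authors' deposited table. Kit, the receptor of KIT ligand, was listed at 0 in both tables. Ebf1, the relative of Ebf3 that marks stromal and B-lineage cells, had 415.1 in muscle and 53.9 in bone, per the authors' deposited table, with fold changes of 0.23 (p = 0.511) and -0.66 (p = 0.749).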
